A study of Mus musculus with 40 samples.

Results

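The step from day 5 to day 6 was followed in epiblast-like aggregates of mouse embryonic stem cells (line CGR8, strain 129) that had received the tankyrase inhibitor XAV939 from 0 to 72 h. It compares the 4 XAV939 libraries of day 6 with the 4 XAV939 libraries of day 5, chosen by their labels, and so uses 8 of the 40 libraries of the study. The inhibitor period had ended at 72 h, before either day, and the labels name no agent given after it. All aggregates were kept in serum-free N2B27 medium with Activin-A, Fgf2 and KSR, and the other arm, left untreated, was sampled on the same days with 4 libraries each. Labels of untreated libraries state that no matrigel was used, and labels of XAV939 libraries do not mention matrigel. Poly(A) RNA of whole aggregates was sequenced, and nothing in the labels says whether the 4 libraries of a day came from separate cultures, so the p-values cover no more than library-to-library spread, which may be technical.

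In the mouse embryo the epiblast is the pluripotent tissue from which the body is built. Wnt, Nodal and FGF signals drive part of it through the primitive streak into mesoderm and endoderm, while other cells become neural plate. As the trunk is laid down, retinoic acid from the somites and the successive activation of Hox genes accompany the loss of pluripotency, and Sonic hedgehog patterns the ventral neural tube. By inhibiting tankyrases XAV939 protects Axin from breakdown, and signalling through β-catenin is dampened.

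The deposited totals ran from 34295564 to 38423113 counts in the day 6 libraries and from 31159603 to 36229585 counts in the day 5 libraries. Levels are in CPM, counts scaled to the depth and composition of each library, means carry the SD over 4 libraries, and log2 fold changes are day 6 over day 5 with a standard error (SE). A gene was called when its adjusted p in the edgeR quasi-likelihood test over 16878 genes was under 0.05. Library 1 stood apart in technical measures on days 5, 6 and 7. Day 6 library 1 held 2267 CPM of Gm42418, a gene that overlaps ribosomal RNA sequence and was named after its values were seen, against 236 to 277 CPM in the other 3 day 6 libraries, and 1.57% of its counts were mitochondrially encoded against 2.59% to 3.07%. Lars2, a mitochondrial leucyl-tRNA synthetase whose reads can likewise hold ribosomal RNA, stood at 1170 CPM there against 70.02 to 95.4 CPM, and Gm15564 at 36.3 CPM against 2.11 to 3.33 CPM. Day 5 library 1 was high for Lars2 too, at 681 CPM against 75.6 to 109 CPM, and its mitochondrial share was 1.04% against 2.50% to 3.61%. Day 7 library 1 had 851 CPM of Lars2 against 87.4 to 181 CPM and a mitochondrial share of 1.21% against 2.41% to 2.51%. Results that rest on day 6 library 1 are therefore given with and without it. Of 121 genes considered by name 36 overlap another annotated gene, so that some of their reads could belong to it. In whole aggregates, fewer cells of a type and less RNA per cell cannot be told apart.

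Between day 5 and day 6 the aggregates lost epiblast, primitive streak and Nodal transcripts and gained trunk Hox, somite, ventral neural tube, Notch and gut transcripts. Of the genes tested 1565 were higher and 1297 lower at day 6, which is 17% of all genes (9.27% higher and 7.68% lower). At least 2-fold changes were called in 1016 genes upward and 718 downward (10.3% of genes), and at least 8-fold changes in 198 and 65. The 4 day 6 libraries did not overlap the 4 day 5 libraries in 3327 genes (19.7%), of which 2257 were also called. The median log2 fold change over all genes was -0.03. On an axis running from the mean of day 5, at 0%, to the mean of day 7, at 100%, day 6 libraries 1 to 4 stood at 67.0%, 60.0%, 42.4% and 59.1%. Library 3 was thus nearest to day 5. The plot of called shares by list sets each gene group against the whole transcriptome.

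**Figure D1:**
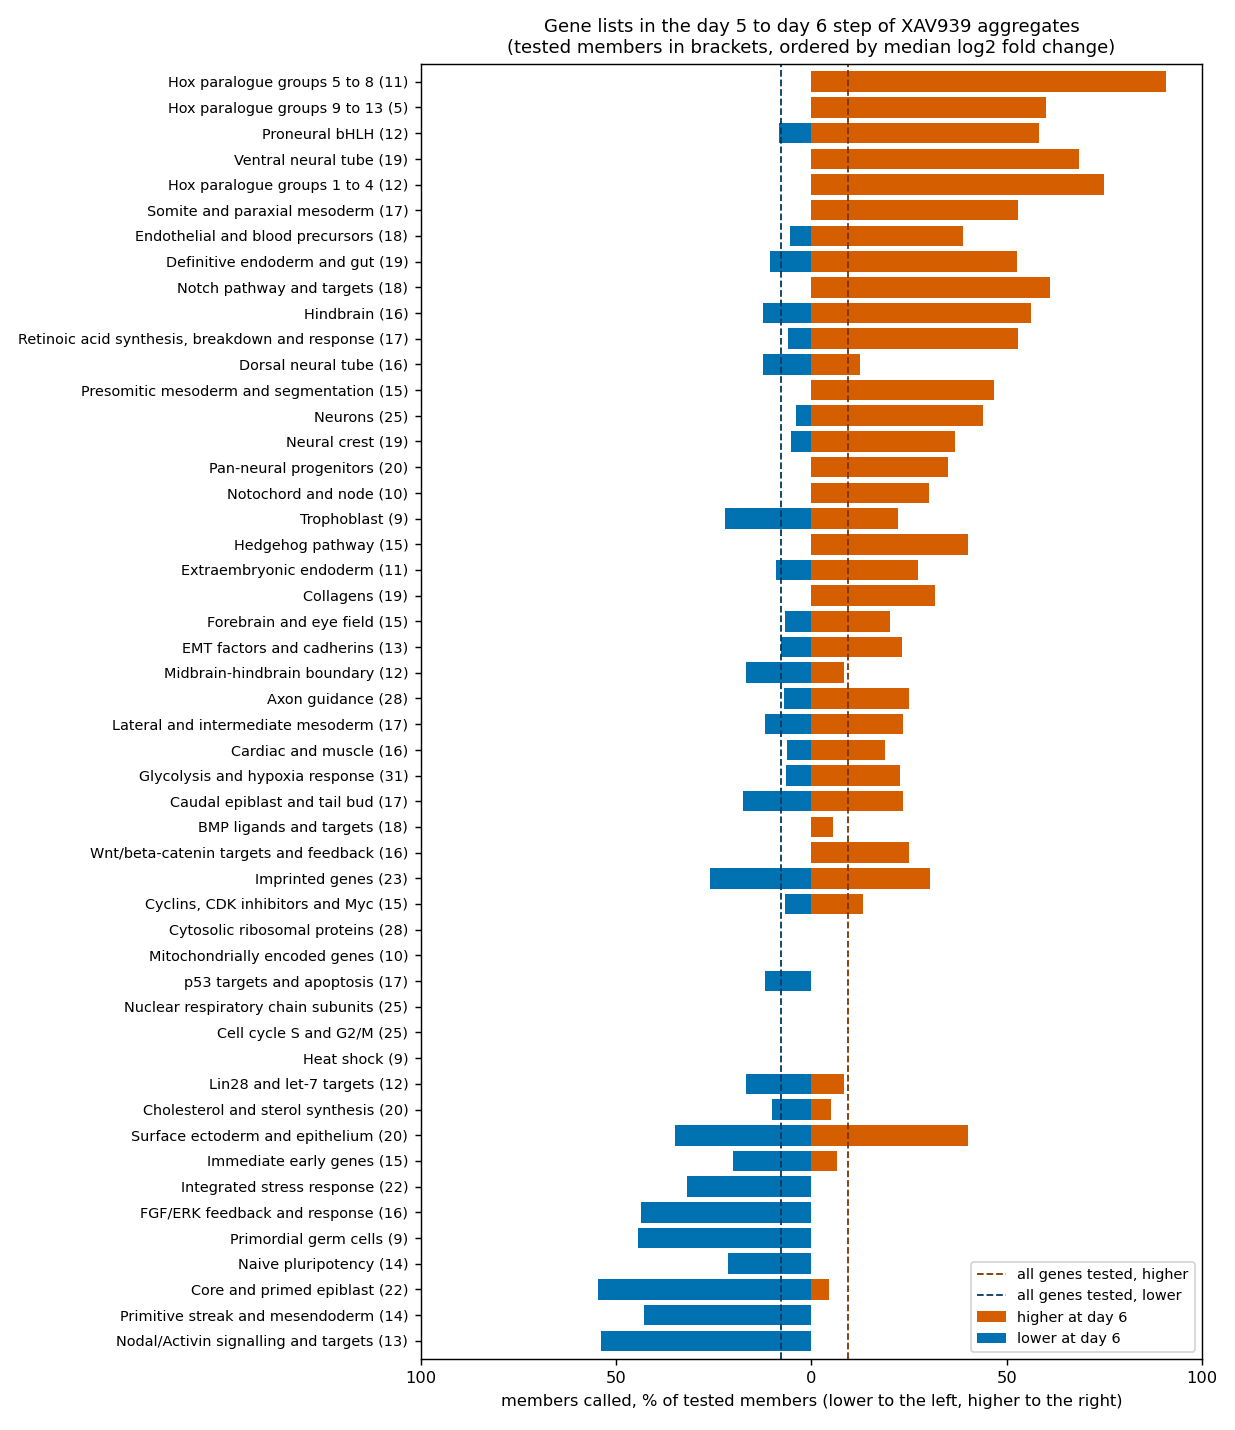
Share of the tested members of each gene list that were called higher (right, orange) or lower (left, blue) at day 6 than at day 5 in XAV939 aggregates, in percent, with tested members in brackets; the dashed lines mark all genes tested, 9.27% higher and 7.68% lower. Hox lists lie at the top, Nodal and primitive streak lists at the bottom, and the cell cycle, ribosomal protein and respiratory chain lists have no bar.

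Pluripotency genes fell as a group. Among 22 markers of core pluripotency and the primed epiblast 12 fell and 1 rose, beside 7.68% and 9.27% of all genes, with a median log2 fold change of -1.24. Without day 6 library 1, or day 5 library 1, 2 or 3, 0 rose. Pou5f1 (chromosome 17, 35506018 to 35510772, GRCm38), which encodes the pluripotency factor Oct4, had 9.88, 21.9, 31.4 and 11 CPM in day 6 libraries 1 to 4, against 356, 182, 346 and 98.0 CPM in day 5 libraries 1 to 4. The groups did not overlap, and day 5 library 4 was the lowest of its day. The log2 fold change was -3.73 (SE 0.65, edgeR adjusted p 8.74e-05). Nanog (chromosome 6, 122707489 to 122714633), a homeobox factor of the same network, had 3.05, 3.83, 6.32 and 2.40 CPM at day 6, against 113, 51.4, 142 and 52.4 CPM at day 5. Every day 6 library was far below every day 5 library, and the log2 fold change was -4.52 (SE 0.46, edgeR adjusted p 1.47e-08). L1td1, an RNA-binding protein of pluripotent cells, fell by 4.13 on the log2 scale and the kinase gene Pim2 by 3.71. Dnmt3b, the de novo DNA methyltransferase of the epiblast, averaged 142 ± 21.8 CPM at day 6 and 400 ± 143 CPM at day 5. Of 14 naive pluripotency genes 3 fell and 0 rose, among them Prdm14, a repressor that guards naive and germ cell identity, at 0.148 ± 0.129 CPM at day 6 and 1.44 ± 0.302 CPM at day 5, and Klf5, a Krüppel-like factor, at 2.83 ± 0.682 and 7.98 ± 1.79 CPM. The fall of Prdm14 was 3.27 on the log2 scale and 3.98 without day 6 library 3. Sox2, shared by epiblast and neural progenitors, stood at 85.1 ± 11.9 CPM at day 6 and 47.6 ± 19.3 CPM at day 5 and was not called (adjusted p 0.0641). It was called with the replicate number as a block over all 40 libraries (log2 fold change 0.86, adjusted p 0.0431) and without day 5 library 4 (1.05, adjusted p 0.0325).

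Of the 30 genes with the largest named rises and falls, 20 had an entry in the RefSeq promoter table for GRCm38.p6. Nanog and Pim2 were picked by name from the fallen pluripotency genes, each searched for its own POU factor motif. Whether other fallen genes hold such motifs is not given here. The 120 bases around each match are shown 5′ to 3′ on the strand of the gene, with the match in capitals. The Nanog stretch (chr6:122707360-122707479, plus strand) holds an octamer-Sox composite, searched as TTTGCAT, any base and then ACAA, which joins a POU site to a Sox site. The Pim2 stretch (chrX:7878056-7878175, plus strand) holds the octamer ATGCAAAT, read on the other strand.
Nanog: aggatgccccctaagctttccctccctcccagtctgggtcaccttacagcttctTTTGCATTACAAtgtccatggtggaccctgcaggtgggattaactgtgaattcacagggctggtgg
Pim2: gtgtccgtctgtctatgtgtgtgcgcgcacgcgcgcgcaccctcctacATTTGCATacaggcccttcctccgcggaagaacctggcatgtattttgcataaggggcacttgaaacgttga
Searched on both strands, the composite occurs in 12 of 32851 promoter windows (0.0365%) and the octamer in 570 (1.74%). The POU site of the composite overlaps the octamer in its letters. The matches are a description of these letters and not a measurement of binding.

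Many genes of the primitive streak and of the Nodal pathway fell. The lists share Mixl1, Eomes, Nodal, Gsc and Lhx1, so their counts are not independent. In the streak list 8 genes were not called, and 4 of these had positive fold changes. Of 14 streak and mesendoderm genes 6 fell and 0 rose, with a median of -1.39, and of 13 tested Nodal and Activin genes 7 fell and 0 rose, with a median of -1.59. Mixl1 (chromosome 1, 180693043 to 180697034), a homeobox factor of the streak, had 0.302, 0.496, 1.89 and 0.573 CPM at day 6, against 29.3, 30.9, 48.6 and 14.4 CPM at day 5. Day 6 library 3 was highest on its day and still below every day 5 library. The log2 fold change was -5.24 (SE 0.97, edgeR adjusted p 0.000186), the largest fall among the called genes of at least 5 CPM without overlap, and -6.07 without day 6 library 3. Tdgf1, the Nodal co-receptor, had 3.45, 4.71, 11.4 and 6.25 CPM at day 6, against 85.6, 106, 134 and 50.6 CPM at day 5, with no overlap and a fall of 3.86. The ligand gene Nodal averaged 5.27 ± 1.70 CPM at day 6 and 15.9 ± 7.42 CPM at day 5, and its feedback antagonist Lefty2 averaged 2.12 ± 1.39 and 13 ± 4.13 CPM. Eomes, a T-box factor of mesendoderm, fell by 2.14, and Wnt3, the ligand that starts the streak, by 2.19. T (brachyury), the streak and notochord factor, was not called in the fit without pairing. It stood at 36.3, 105, 56.6 and 66.8 CPM in day 6 libraries and 179, 231, 266 and 106 CPM in day 5 libraries (log2 fold change -1.56, adjusted p 0.138). In a fit of only the 8 libraries T was called with replicate blocks (-1.57, adjusted p 0.0105) and also without them. Nodal lost its call without the libraries numbered 1 of both days (-1.20, adjusted p 0.118).

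FGF/ERK response genes moved the same way, with 7 of 16 lower and 0 higher and a median of -0.94, and 4 lower without day 6 library 2. Fgf5, the FGF ligand that marks the primed epiblast, had 13.2, 10.6, 18.2 and 7.35 CPM at day 6, against 61.4, 54, 76.9 and 25.9 CPM at day 5. The groups did not overlap, and the fall was 2.15 (SE 0.35, edgeR adjusted p 3.03e-05). Etv1, an ETS factor induced by ERK, fell by 1.39 and Spred1, a feedback inhibitor, by 0.92. Of 16 Wnt/β-catenin target and feedback genes 4 rose and 0 fell, with a median of 0.07, and 2 rose without day 5 library 3. Nkd2, a Dishevelled antagonist induced by Wnt signalling, averaged 12.5 ± 3.14 CPM at day 6 and 5.32 ± 0.322 CPM at day 5. Axin2, a general target and brake of the pathway, had 90.1, 45.4, 49.0 and 55.4 CPM at day 6 and 102, 64.7, 74.6 and 57.0 CPM at day 5 and was not called (adjusted p 0.546). Of 18 BMP ligands and targets 1 rose and 0 fell, with 2 higher without day 6 library 3 or 4 and 1 lower without day 6 library 1. The gene that rose with all libraries was Nog, a secreted BMP antagonist of notochord and node, with 2.78 ± 0.973 CPM at day 6 and 0.196 ± 0.112 CPM at day 5.

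Paraxial mesoderm and somite genes rose. Of 17 somite genes 9 rose and 0 fell, with a median of 2.34, and of 15 presomitic and segmentation genes 7 rose and 0 fell, with a median of 1.08, or 6 and 1 without day 6 library 3. Meox1 (chromosome 11, 101877510 to 101894374), a homeobox factor of the somite, had 58.3, 84.7, 96.6 and 71.6 CPM at day 6, against 0.253, 0.967, 0.200 and 0.954 CPM at day 5. Every day 6 library was above 58 CPM and every day 5 library under 1 CPM, with a log2 fold change of 7.04 (SE 0.65, edgeR adjusted p 3.23e-09). Foxc2, a forkhead factor of somite and vessels, had 10.7, 15, 24.0 and 14.3 CPM at day 6, against 0.112, 0.166, 0.115 and 0.132 CPM at day 5, a rise of 6.89. Tcf15, a bHLH factor of epithelial somites, rose by 3.82 and Tbx18, a T-box factor of the anterior part of each somite, by 4.38. Among segmentation genes Mesp2, which sets the next somite boundary, had 2.57, 2.18, 7.73 and 2.32 CPM at day 6, against 0.112, 0.442, 0.286 and 0.296 CPM at day 5. Library 3 was highest at day 6, and the rise was 3.68 with it and 3.04 without it. Its partner Ripply2 rose by 5.95, and by 5.18 without day 6 library 3, Ripply1 rose by 1.83, and Lfng, a glycosyltransferase of the segmentation clock, averaged 44.2 ± 4.64 CPM at day 6 and 13.2 ± 3.29 CPM at day 5. Tbx6, which commits progenitors to presomitic mesoderm, had 4.11, 3.80, 22.9 and 6.64 CPM at day 6 and 3.85, 6.85, 4.72 and 2.90 CPM at day 5. The groups overlapped, with library 3 far above the rest, and Tbx6 was not called (adjusted p 0.371). In the caudal epiblast list 4 of 17 genes rose and 3 fell, but 1 fell without day 6 library 1 or 4 and 0 without day 6 library 2, with 4 higher each time. Cdx4, a caudal homeobox factor, rose by 3.45, or by 2.78 without day 6 library 3, and Wnt5a, a ligand of axis elongation, averaged 39.5 ± 9.77 CPM at day 6 and 14.7 ± 1.36 CPM at day 5. Gdf11, a ligand that times the trunk-to-tail transition, averaged 37.7 ± 7.6 and 17.9 ± 2.2 CPM, and its adjusted p of 0.00799 became 0.0704 without the libraries numbered 1 of both days. Cdx2 was at 15.5, 21.0, 72.9 and 28.1 CPM at day 6 and 29.0, 21.7, 16.1 and 19.5 CPM at day 5 (log2 fold change 0.67, adjusted p 0.558).

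Retinoic acid genes rose in 9 of 17 cases and fell in 1, with a median of 1.12. Aldh1a2 (chromosome 9, 71215789 to 71296243), whose product synthesises retinoic acid in somites, had 88.3, 88.2, 236 and 95.9 CPM at day 6, against 1.6, 4.09, 0.429 and 2.17 CPM at day 5. Library 3 was lowest of the 4 at day 5 and highest at day 6. The log2 fold change was 5.93 (SE 0.74, edgeR adjusted p 5.97e-07). Rarb, a retinoic acid receptor whose own gene responds to retinoic acid, had 18.7, 21.5, 24.7 and 16.5 CPM at day 6, against 0.926, 1.46, 0.687 and 2.53 CPM at day 5. The day 6 libraries lay close together and clear of day 5, with a rise of 3.87 (SE 0.39, edgeR adjusted p 1.43e-08). Annotated genes on the other strand, Top2b among them, overlap Rarb, so that some of its reads could be theirs. Cyp26b1, which degrades retinoic acid in hindbrain and limb, had 21.0, 42.7, 9.73 and 36.9 CPM at day 6, against 2.05, 8.67, 0.716 and 5.46 CPM at day 5, a rise of 2.71, or of 3.34 without day 5 library 2. Crabp2, the carrier of retinoic acid to its receptors, averaged 600 ± 28.9 CPM at day 6 and 189 ± 97.1 CPM at day 5. Cyp26a1, the degrading enzyme of the tail bud, was at 17.7 ± 6.59 and 8.34 ± 2.86 CPM and was not called in the fit without pairing (adjusted p 0.102), while a fit of only the 8 libraries called it with replicate blocks (log2 fold change 1.08, adjusted p 0.00343) and without them (1.10, adjusted p 0.0308).

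The 120 bases shown for Rarb hold the direct repeat (DR5) of retinoic acid receptor sites spaced by 5 bases, in capitals. They come from the RefSeq promoter table (chr14:16575477-16575596, GRCm38.p6, minus strand, 5′ to 3′), and the start site used there lies inside the annotated span of the gene (chromosome 14, 16430839 to 16819156).
Rarb: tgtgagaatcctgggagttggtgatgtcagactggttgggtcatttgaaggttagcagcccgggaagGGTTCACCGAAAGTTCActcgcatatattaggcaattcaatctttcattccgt
On either strand 32 of the 32851 promoter windows hold a repeat of this form (0.0974%). The match describes the letters and says nothing of receptor occupancy in these cells.

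Most Hox genes rose. They encode the homeobox factors that give axial level, activated in order along each cluster. Of 28 Hox genes tested 22 rose and 0 fell. Paralogue groups 1 to 4 had 9 of 12 higher with a median log2 fold change of 2.64, groups 5 to 8 had 10 of 11 with 4.93, and groups 9 to 13 had 3 of 5 with 4.69. The other 6 genes were not called. Among these 4 had positive fold changes, and the most posterior genes, Hoxc13 and Hoxd13, given after their values were seen, had -2.27 (adjusted p 0.126) and -0.79 (adjusted p 0.215). Neither exceeded 0.329 CPM in any of the 8 libraries, and the Hoxd13 groups did not overlap. Hoxb9 (chromosome 11, 96271457 to 96276595), of the thoracic trunk, had 71.0, 73.1, 181 and 142 CPM at day 6, against 4.91, 4.78, 0.687 and 4.74 CPM at day 5. Day 5 library 3 was far below its fellows, and day 6 library 3 was the highest. The log2 fold change was 4.95 (SE 0.61, edgeR adjusted p 5.61e-07). Hoxb8 had 15.7, 22.5, 55.4 and 30.7 CPM at day 6, against 1.40, 2.35, 0.344 and 1.45 CPM at day 5, a rise of 4.48. Hoxb3, of the hindbrain and neck, had 10.8, 23.1, 34.0 and 31.0 CPM at day 6, against 0.702, 1.33, 0.286 and 1.05 CPM at day 5, a rise of 4.87. Hoxa7 rose by 6.92, or by 7.64 without the libraries numbered 1 of both days, Hoxc8 by 6.82, or by 7.74 without day 5 library 2, and Hoxc4 by 5.85. Hoxd3 and Hoxd4 rose by 5.72 and 5.90, and since their annotations overlap on the same strand either may hold reads of the other. The antisense transcripts Hoxb5os and Hoxaas3 rose by 8.90 and 6.15. They overlap Hoxb5 and Hoxb6, and Hoxa3 to Hoxa7, on the other strand, and whether counting used strand is not given in the sources used here, so their reads cannot be told from those of the coding genes.

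**Figure D2:**
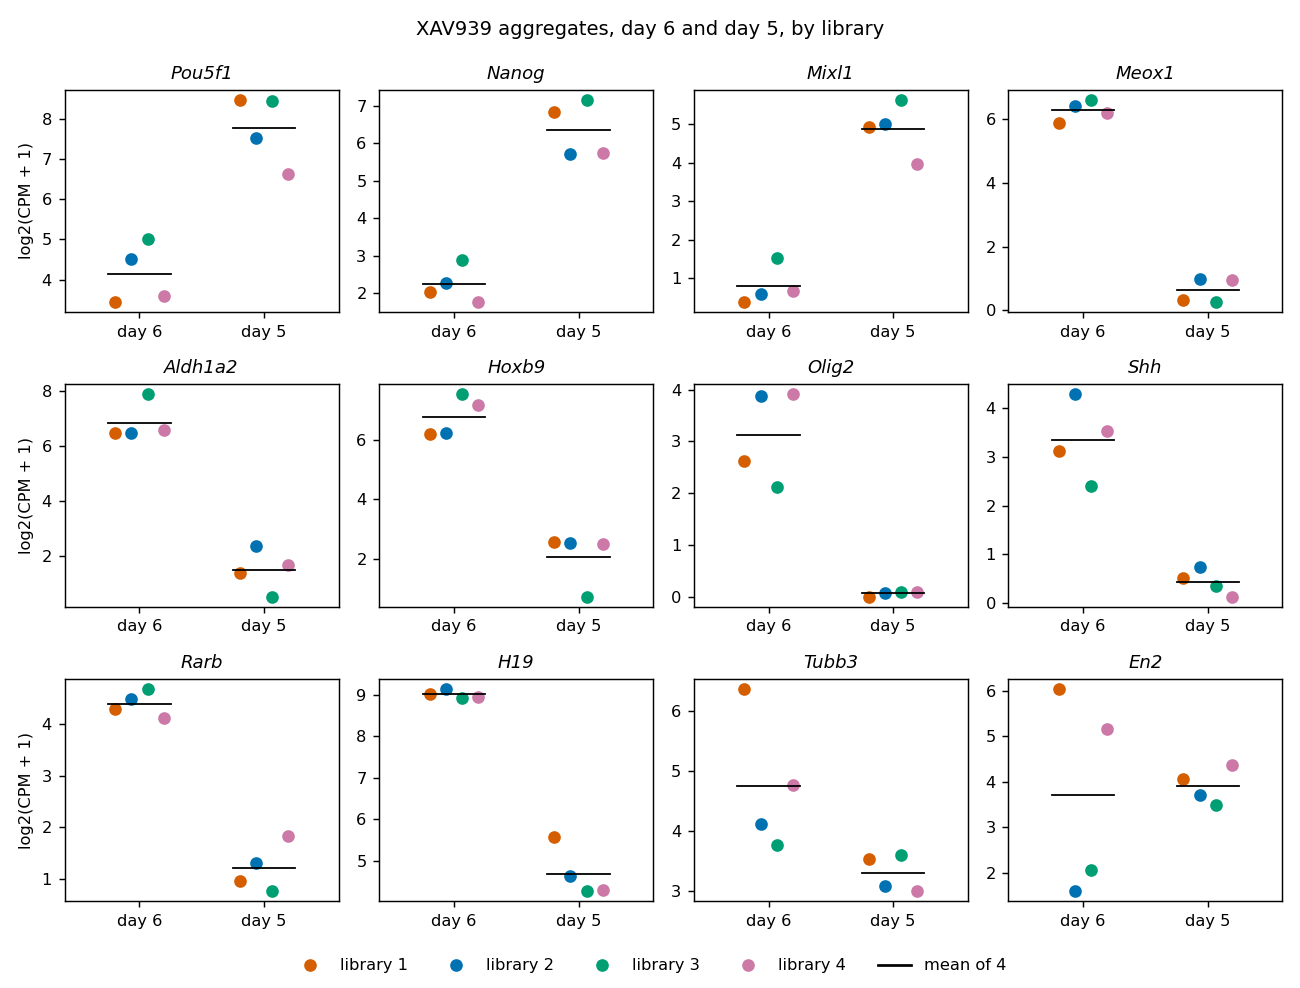
Level of 12 named genes in each XAV939 library, as log2(CPM + 1), with day 6 on the left and day 5 on the right; colours are library numbers and bars are means of 4. The groups do not overlap for the first 10 genes or for Tubb3, and En2 overlaps, with day 6 libraries 1 and 4 high and 2 and 3 low.

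Neural tube genes rose most in the ventral part. Of 19 ventral neural tube genes 13 rose and 0 fell, with a median of 2.64. Shh, the Sonic hedgehog ligand of notochord and floor plate, had 7.68, 18.4, 4.30 and 10.6 CPM at day 6, against 0.421, 0.663, 0.286 and 0.0987 CPM at day 5. Library 2 was highest on both days, the groups did not overlap, and the log2 fold change was 4.77 (SE 0.55, edgeR adjusted p 3.03e-07). Gli1, a transcription factor induced by hedgehog signalling, had 33.4, 103, 52.4 and 74.5 CPM at day 6, against 5.08, 11, 2.98 and 2.47 CPM at day 5, a rise of 3.60, or of 4.22 without day 5 library 2. Ptch1, receptor and target of the pathway, averaged 415 ± 159 CPM at day 6 and 76 ± 24.5 CPM at day 5. Of 15 hedgehog pathway genes, some of which are in the ventral list too, 6 rose and 0 fell. Olig2 (chromosome 16, 91225457 to 91228677), a bHLH factor of motor neuron progenitors, had 5.19, 13.6, 3.35 and 14.0 CPM at day 6, against 0, 0.0552, 0.0573 and 0.0658 CPM at day 5. It was close to absent in every day 5 library, and the rise was 7.58 (SE 0.71, edgeR adjusted p 9.92e-09). Nkx2-9, a homeobox factor next to the floor plate, rose by 5.04, or by 5.94 without day 5 library 2.

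General neural genes rose less. Of 20 pan-neural progenitor genes 7 rose and 0 fell, with a median of 0.76. Pax6, a homeobox factor of neural progenitors, had 22.9, 31.0, 21.9 and 27.2 CPM at day 6, against 1.80, 5.39, 1.0 and 6.78 CPM at day 5, a rise of 2.79 (SE 0.52, edgeR adjusted p 0.000181). Ncam1, the neural cell adhesion molecule, averaged 103 ± 14.6 CPM at day 6 and 28.6 ± 2.86 CPM at day 5. Sox1, an early neural factor, was at 75.6 ± 18.5 and 97.1 ± 20.8 CPM and was not called (adjusted p 0.659). Cdh2, the N-cadherin gene, was at 307 ± 32.0 and 217 ± 40.4 CPM, with adjusted p 0.183, and was called in the fit of only the 8 libraries with replicate blocks (log2 fold change 0.53, adjusted p 0.00633) and without them (0.51, adjusted p 0.0253). Of 16 hindbrain genes 9 rose and 2 fell, or 6 and 1 without day 5 library 3, and 9 and 1 without day 6 library 1, 2 or 4. Meis1, a Hox cofactor, rose by 1.87, while Egr2, which marks hindbrain segments and also responds to ERK, had 1.54, 2.18, 1.70 and 0.599 CPM at day 6, against 15.4, 21.5, 7.93 and 14.4 CPM at day 5. Of 19 neural crest genes 7 rose and 1 fell, with 0 lower without day 6 library 2, 3 or 4 or day 5 library 1 or 3, and Ednrb, an endothelin receptor of crest and neural cells, rose by 2.24. Olig3, a bHLH factor of the dorsal neural tube, fell by 2.18. Robo2, a receptor for axon guidance cues, averaged 26.4 ± 9.94 CPM at day 6 and 1.80 ± 0.902 CPM at day 5.

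Notch pathway genes rose in 11 of 18 cases and fell in 0, with a median of 1.34. The count higher was 9 without day 6 library 1 or 4 or day 5 library 3 or 4, and the median was 1.39 without day 6 library 1. Heyl, a Notch target, had 5.62, 4.38, 2.32 and 3.96 CPM at day 6, against 0.140, 0.166, 0.0573 and 0.132 CPM at day 5. Library 3 was lowest on both days, and the rise was 5.0 (SE 0.45, edgeR adjusted p 3.06e-09). The related targets Hey2 and Hey1 rose by 2.25 and 1.76, and the receptor gene Notch1 averaged 117 ± 10.45 CPM at day 6 and 41.7 ± 13.4 CPM at day 5. Proneural bHLH genes, which start neuronal differentiation, rose in 7 of 12 cases and fell in 1. Neurog2 had 2.22, 1.82, 0.648 and 1.75 CPM at day 6, against 0, 0.0276, 0 and 0.0329 CPM at day 5, a rise of 6.48 on the fitted scale. Neurod4 and Nhlh2 rose by 5.29 and 3.69. Without day 6 library 1 these were 4.58 and 2.48, and without day 5 library 4 Neurod4 rose by 8.36.

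Gut, vessel and epithelial lists moved in part. Of 19 definitive endoderm and gut genes 10 rose and 2 fell, with a median of 1.52. Foxa1, a forkhead factor of endoderm and floor plate, rose by 2.31, the trypsin inhibitor gene Spink1 by 3.67, and Sox17, of endoderm and vessels, by 2.42. Among 18 endothelial and blood genes 7 rose and 1 fell, and those named were rare. The count higher was 5 without day 6 library 1 or day 5 library 1, and 4 without day 6 library 2 or day 5 library 4. The median was 1.61, and 1.09 without day 6 library 1. Without day 6 library 3, 2 were lower. Runx1, of blood precursors, averaged 1.30 ± 0.0918 CPM at day 6 and 0.421 ± 0.0729 CPM at day 5, and the ETS factor Fli1 averaged 0.905 ± 0.233 and 0.138 ± 0.0560 CPM. Kdr, the VEGF receptor gene of vascular precursors, was at 5.54 ± 2.89 CPM at day 6 and 14.0 ± 5.08 CPM at day 5 (log2 fold change -1.34, adjusted p 0.117), and with replicate blocks over all 40 libraries it was called (-1.44, adjusted p 0.0314). Of 20 surface ectoderm and epithelial genes 8 rose and 7 fell, with 4 lower without day 6 library 4. The keratins Krt18 and Krt19 rose by 1.57 and 2.84. Epcam, an epithelial adhesion molecule, averaged 21.3 ± 5.71 CPM at day 6 and 55.1 ± 17.3 CPM at day 5. The splicing factor gene Esrp1 fell by 1.6 on the log2 scale. Cdh1, the E-cadherin gene, fell by 1.09 with overlapping groups, and lost its call without the libraries numbered 1 of both days (-0.83, adjusted p 0.0763).

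Of 23 imprinted genes, which are expressed from 1 parental allele, 7 were higher and 6 lower, with a median of 0.06. The count lower was 2 without day 6 library 1, day 6 library 4 or day 5 library 3, with 6 or 7 higher. H19 (chromosome 7, 142575529 to 142578143), a growth-linked noncoding RNA, had 522, 564, 489 and 496 CPM at day 6, against 46.7, 23.5, 18.1 and 18.4 CPM at day 5. The day 6 libraries differed little among themselves, and the rise was 4.28 (SE 0.44, edgeR adjusted p 1.68e-08). Its neighbour Igf2, a growth factor gene, averaged 89.9 ± 20.5 CPM at day 6 and 27.3 ± 3.18 CPM at day 5, and the zinc-finger factor Plagl1 averaged 157 ± 58.2 and 42.6 ± 14.6 CPM. Of 22 integrated stress response genes, which amino acid shortage and other stresses induce, 7 fell and 0 rose, with a median of -0.72. The count lower was 4 without day 6 library 1, 3 without day 6 library 2, day 6 library 4 or day 5 library 3, 2 without day 5 library 1 and 11 without day 5 library 4. Slc7a11, the cystine transporter, had 11.4, 13, 11.3 and 9.69 CPM at day 6, against 92.3, 42.9, 143 and 42.1 CPM at day 5. The day 5 libraries were spread wide and the day 6 libraries lay close together below them, and the fall was 2.82 (SE 0.55, edgeR adjusted p 0.00034). In the glycolysis and hypoxia list 7 of 31 rose and 2 fell, or 1 without day 6 library 1, 2 or 4 or day 5 library 1 or 3, with Aldoc, a brain aldolase, 1.17 higher and Ndrg1, a hypoxia-induced gene, 2.85 lower. Arg1, the arginase gene, had 28.5, 37.0, 44.3 and 34.4 CPM at day 6, against 0.168, 0.635, 0.315 and 0.790 CPM at day 5, a rise of 6.25. Lin28a, the RNA-binding repressor of let-7 microRNAs, fell by 0.71 and Pmaip1, an apoptosis gene induced by p53, by 1.67. Acta1, an actin of skeletal muscle, fell by 3.92 and Trim67, a neural ubiquitin ligase gene, by 3.60.

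No gene was called in 6 lists for general cell functions. They held 25 cell cycle genes, 28 cytosolic ribosomal protein genes, 25 nuclear respiratory chain genes, 10 mitochondrially encoded genes, 9 heat shock genes and 3 replication-dependent histone genes, with medians between -0.14 and -0.02. Day 6 library 1 was the lowest of its day for 9 of the 10 mitochondrially encoded genes, against 28.6% of all genes. Without day 6 library 3, 1 heat shock gene and 1 nuclear respiratory chain gene were lower. A missed threshold does not show that genes were equal. Other lists for general functions did hold calls. Of 15 cyclin, CDK inhibitor and Myc genes 2 rose and 1 fell, or 0 and 0 without day 5 library 3. Of 20 cholesterol synthesis genes 1 rose and 2 fell, and of 17 p53 target and apoptosis genes 0 rose and 2 fell. The shares called were 20%, 15% and 11.8%, beside 17% of all genes.

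Some rises were larger in day 6 library 1 than in the other 3 day 6 libraries. Without it edgeR called 1138 genes higher and 926 lower (12.2% of genes, 6.74% and 5.49%), so that 858 of the 2862 calls were lost and 2004 (70.02%) were kept, with no change of sign. Leaving out another day 6 library lost 276 to 789 calls, and leaving out 1 day 5 library lost 351 to 979, the most without day 5 library 3. The size of the changes moved more: 92 called genes moved by more than 1.5-fold without day 6 library 1, against 6 to 51 without any 1 of the other 7 libraries. Genes in which a library is low cannot pass this rule, because leaving out the lowest of 4 moves a mean too little. Day 6 library 1 was thus the highest of its day in all 92 by construction. In 75 of these a rise became smaller, with 61 calls lost and 14 kept, and in 17 a fall became larger, of which 1 call was lost. Of the 92 genes 76 are in none of the gene lists, 6 are in the neuron list and 5 in the proneural list. The lost call among the falls was Inhbe, an inhibin subunit gene chosen after its values were seen, at -3.37 (adjusted p 0.0424) with the library and -4.18 (adjusted p 0.053) without it, and its call was also lost without any 1 of the other day 6 libraries and without day 5 library 1 (-2.66, adjusted p 0.16) or 3.

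The 10 genes farthest above the median of the other 3 libraries in day 6 library 1, a choice made on these values and given as a description, included Lars2, Gm15564 and several neural genes. Tfap2b, a factor of dorsal neurons and crest, was at 38.1 CPM in library 1 and 1.05, 0.567 and 8.13 CPM in libraries 2 to 4. En1 and En2, homeobox factors of the midbrain and anterior hindbrain, stood at 26.1 against 0.275, 0.486 and 15.5 CPM and at 64.6 against 2.01, 3.16 and 34.6 CPM. Wnt1, the ligand of the midbrain-hindbrain boundary and dorsal midline, was at 14.7 against 0.413, 0.189 and 3.20 CPM. Library 4 was second highest in each of these, between library 1 and the rest. Otx1, of forebrain and midbrain, Tal2, of midbrain neurons, and Mab21l2, of eye and midbrain, were also among them, at 15.1, 61.2 and 23.5 CPM in library 1 and at most 5.47, 20.4 and 4.38 CPM in the other 3. In total 54 genes of at least 5 CPM were over 4-fold above the median of the other 3 in day 6 library 1, against 0, 6 and 8 genes in libraries 2 to 4, and Gm42418 was one of them. Over 4-fold below were 0, 12, 11 and 0 genes in libraries 1 to 4. The root mean square log2 distance from the mean of the other 3 was 0.523, 0.414, 0.499 and 0.340 in libraries 1 to 4. For day 5 library 4 that distance was 0.563. The 54 genes were picked for standing high in this library, so that losing calls without it follows from the choice. Of the 54 genes 24 were called in the step, against 17% of all genes. Without the library 4 kept their call, against 70.02% of all calls. At day 7 library 1 was the highest of its day for 53 of the 54 (32.9% of all genes), at day 5 for 9 (33.4% of all genes) and at day 6 in untreated aggregates for 23 (24.4% of all genes). Tfap2b had 72.0 CPM in day 7 XAV939 library 1 and 0.820, 10.9 and 5.76 CPM in the other 3.

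**Figure D3:**
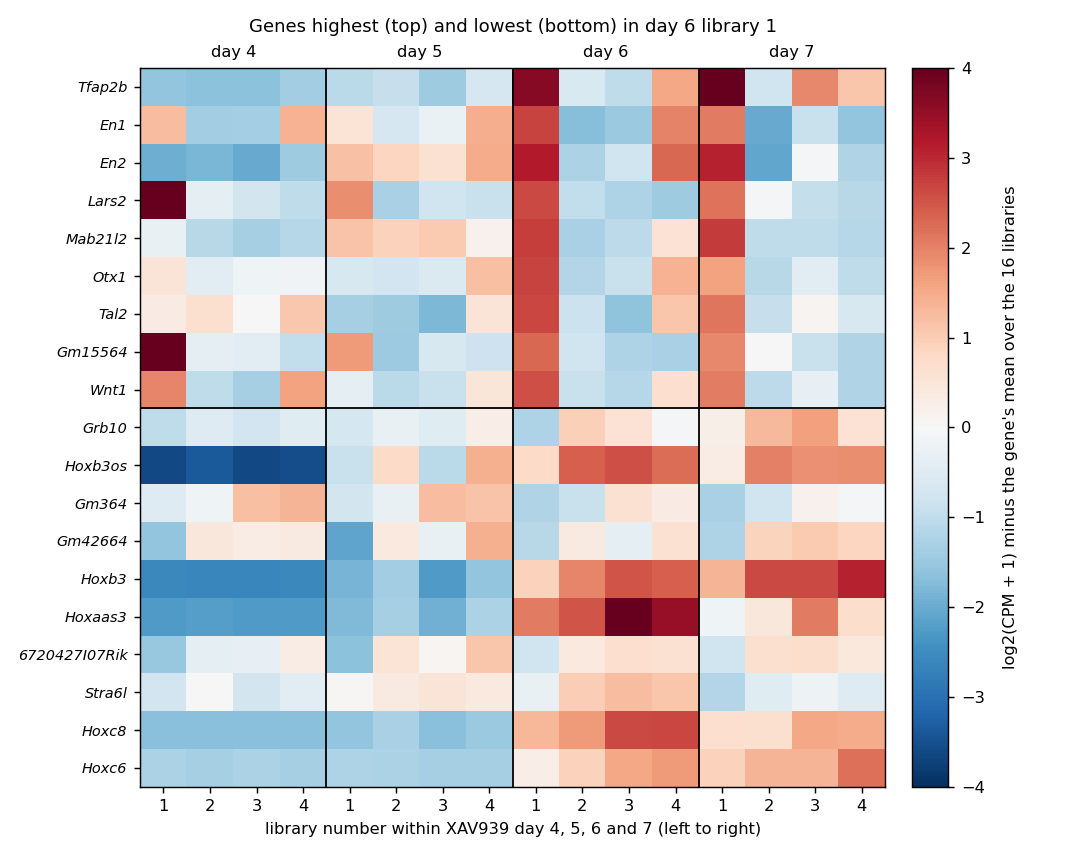
Genes farthest above (upper 9 rows) and below (lower 10 rows) the other 3 day 6 libraries in day 6 library 1, across the 16 XAV939 libraries of days 4 to 7, as log2(CPM + 1) minus the mean of each gene, with colours clipped at -4 and 4. The upper genes are high in library 1 of days 6 and 7, and Hox genes in the lower rows are weaker in library 1 of day 6 than in libraries 2 to 4.

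Several calls in neural lists therefore rest on this library. Tubb3 (chromosome 8, 123411424 to 123422015), the neuronal β-tubulin gene, had 81.7, 16.4, 12.6 and 26.2 CPM at day 6, against 10.7, 7.48, 11.2 and 7.01 CPM at day 5. The groups did not overlap, but most of the mean difference came from library 1. Its log2 fold change was 1.91 (adjusted p 0.00617) with library 1, 1.02 (adjusted p 0.155) without it and 1.55 (adjusted p 0.0692) with blocks in the 8 libraries. Tfap2b had 4.39 (adjusted p 0.00525) with the library, 2.51 (adjusted p 0.096) without it and 3.24 (adjusted p 0.12) with blocks. Otx2, a factor of forebrain and midbrain, had 122, 39.2, 25 and 36.9 CPM at day 6 and 24.9, 20.1, 29.4 and 24.8 CPM at day 5. Its call (1.17, adjusted p 0.0318) ended without library 1 (0.44, adjusted p 0.5), with blocks in the 8 libraries (0.90, adjusted p 0.205) and without any 1 of the 4 day 5 libraries (adjusted p 0.0523 to 0.083). Apcdd1, a Wnt inhibitor induced by Wnt signalling, was at 178 CPM in library 1 and 14.6 to 55.5 CPM in the other 3 at day 6. Its value of 1.78 (adjusted p 0.0183) became 0.58 (adjusted p 0.509) without the library, 1.6 (adjusted p 0.0768) without day 5 library 3 and 1.06 (adjusted p 0.371) with blocks. The Notch target Hes5 (2.43, adjusted p 0.00635) became 1.68 (adjusted p 0.074) without it. Pdgfc, a growth factor ligand gene, was then at 0.81 (adjusted p 0.0567) instead of 1.08, and Ebf2, a factor of young neurons, at 1.42 (adjusted p 0.093) instead of 2.07. Isl1, a motor neuron and heart factor, and Onecut1, a factor of young neurons, kept their calls at 1.5 instead of 2.34 and at 2.50 instead of 3.45, and Onecut1 rose by 4.07 without day 5 library 4. Vim, the vimentin gene, kept its call at 0.77 instead of 1.10 and lost it without the libraries numbered 1 of both days (0.82, adjusted p 0.0652). Isl1 lost its call there too (1.32, adjusted p 0.0676).

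Over whole lists the same libraries differed. Day 6 library 1 was the highest of its day for 21 of 25 neuron genes, 13 of 16 dorsal neural tube genes, 9 of 12 proneural genes and 8 of 12 midbrain-hindbrain boundary genes, and for 30.7% of all genes tested. Lists of other kinds also stood above that share, with 20 of 31 glycolysis and hypoxia genes, 10 of 19 collagens and 17 of 28 axon guidance genes. Without it the neuron list had 7 higher and 2 lower instead of 11 and 1, and its median was 0.45 instead of 0.94. The count lower in this list was also 2 without day 5 library 4 and 0 without day 6 library 4. The proneural median was 1.34 instead of 2.87 and that of the dorsal neural tube 0.15 instead of 1.11, where 1 gene rose and 4 fell instead of 2 and 2 (2 and 1 without day 6 library 2). The forebrain and eye field list, with 15 genes tested, had 1 higher and 0 lower instead of 3 and 1, with a median of 0.14 instead of 0.54. Its count higher was also 1 without day 5 library 1 or 3. Without day 6 library 1 the midbrain-hindbrain boundary list had 0 higher and 1 lower instead of 1 and 2, with a median of -0.16 instead of 0.46. Its single rise was lost without any 1 day 5 library, and 0 fell without day 6 library 2 and 1 without day 6 library 4 or day 5 library 3. Its member Fgf8, a signal of that boundary and of the streak, fell by 2.0, and its call was lost without day 6 library 2 (-1.74, adjusted p 0.0598) and without the libraries numbered 1 of both days (-1.89, adjusted p 0.0719). Of the ventral neural tube genes 13 of 19 were higher with and without library 1, with medians of 2.64 with it and 2.67 without it, and 1 was lower without day 5 library 4.

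Hox genes showed the opposite order. Day 6 library 1 was the lowest of its day for 27 of the 28 Hox genes, against 28.6% of all genes, and day 6 library 3 was the highest for 20, against 29.2% of all genes. Day 6 library 1 was also lowest for 11 of 20 cholesterol synthesis genes and 12 of 23 imprinted genes. At day 7 library 1 was lowest for 21 of the 28 Hox genes (29.6% of all genes), and at day 5 for 0 (28.6% of all genes). Leaving it out raised the Hox medians to 2.85, 5.15 and 4.86 for paralogue groups 1 to 4, 5 to 8 and 9 to 13, and 10 of 12 genes of the first set were then called. Among the 10 genes farthest below the other day 6 libraries were Hoxb3, Hoxc6, Hoxc8 and the antisense transcripts Hoxaas3 and Hoxb3os, again a choice made on these values. Hoxc6 was at 2.02 CPM in library 1 and 3.75, 6.27 and 7.14 CPM in libraries 2 to 4. It rose by 7.57, and by 8.49 without day 5 library 1. Hoxb3os was at 21.1 CPM against 65.8, 75.2 and 59.5 CPM, with a rise of 1.77, or 2.38 without day 5 library 4, and its call ended in the fit of 8 libraries with blocks (2.0, adjusted p 0.0711). Grb10, an imprinted adaptor gene, was at 14.4 CPM in library 1 and 68.8, 52.3 and 33.6 CPM in the other 3. Library 1 had high Lars2 counts and a low mitochondrial share at days 5, 6 and 7. Its Gm42418 level varied more between the days. Day 5 library 1 had 350 CPM of Gm42418 against 269 to 271 CPM. Day 7 library 1 had 546 CPM against 228 to 482 CPM. Day 5 library 1, with a mitochondrial share of 1.04%, was the highest of its day for 9 of the 54 genes and the lowest for 0 of the 28 Hox genes. The part of these technical measures in the results was not tested.

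**Figure D4:**
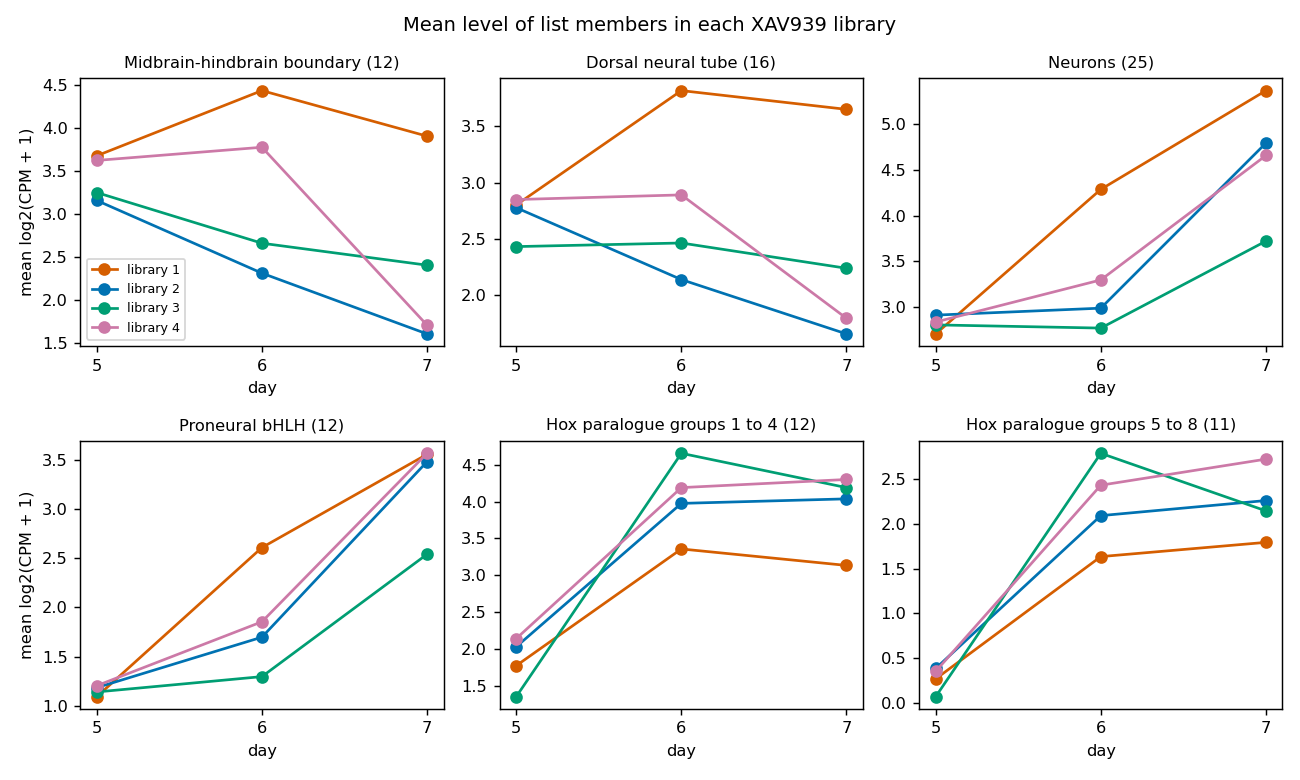
Mean log2(CPM + 1) over the tested members of 6 lists (members in brackets) in each XAV939 library at days 5, 6 and 7, with 1 line for each library number. Library 1 lies above the others at day 6 in the boundary, dorsal, neuron and proneural lists and below them in both Hox lists.

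Leaving out day 6 library 1 also added 60 calls, 21 higher and 39 lower. F11r, a tight-junction adhesion molecule, had log2 fold changes of 0.65 (adjusted p 0.00922) without it and 0.48 (adjusted p 0.0582) with it. Grin2a, a glutamate receptor subunit gene, had -1.75 (adjusted p 0.0192) and -1.24 (adjusted p 0.0678), and Zic5, a dorsal neural zinc-finger factor, -1.20 (adjusted p 0.0205) and -0.92 (adjusted p 0.0505). Atf4, the central factor of the integrated stress response, had -0.79 (adjusted p 0.0353) and -0.64 (adjusted p 0.0562). With all libraries and replicate blocks these 4 genes were also called, at adjusted p 0.0208 for F11r, 0.0222 for Grin2a, 0.0384 for Zic5 and 0.0211 for Atf4.

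The step in XAV939 aggregates was then set against the same step in untreated aggregates, in which 1874 genes were higher and 1471 lower (19.8% of genes, 11.1% and 8.72%). The 2 steps share no library. Of the 1565 genes higher in the XAV939 step 1093 were also higher in the untreated step, which is 69.8% of the first set and 58.3% of the second, and of 1297 lower genes 896 were lower in both (69.1% and 60.9%). No gene was called in opposite directions. Across all genes the 2 fold changes had a Pearson correlation of 0.79, given as a description, because genes are not independent and the deviations of same-numbered day 6 libraries of the arms correlated at 0.279 to 0.404. The difference of the steps, XAV939 minus untreated, was called for 0 genes (0%) by edgeR. An unadjusted edgeR p under 0.05 was reached by 685 of the 16878 genes, no more than chance alone would give at that threshold. DESeq2 called 4 more positive and 4 more negative, and limma with sample weights 0 and 2. Day 6 untreated library 3 had the lowest limma weight of the 40 libraries, 0.086. It was the highest of its day for 37% of all genes and the lowest for 39.2%. Without it edgeR called 1 gene more positive and 4 more negative. Leaving out another library of these days gave 0 to 4 and 0 to 4. For Aldh1a2 the difference was 4.42 (SE 0.89, edgeR adjusted p 0.0978). In untreated libraries 1 to 4 it had 112, 181, 319 and 175 CPM at day 6, against 216, 35.0, 20.7 and 4.82 CPM at day 5. The ranges of the arms overlapped at day 6, and at day 5 every untreated library was above every XAV939 library, with untreated library 1 highest. Arg1 had a difference of 3.36 (adjusted p 0.0978). Without day 5 untreated library 1 the differences were 2.65 (adjusted p 0.421) for Aldh1a2 and 2.27 (adjusted p 0.247) for Arg1. Without day 6 library 1 of the XAV939 arm 1 gene was called (0.00592%), more negative. This was Tph1, a tryptophan hydroxylase gene chosen after its values were seen, with -2.14 (adjusted p 0.0227) without that library and -1.93 (adjusted p 0.088) with it. Tph1 had 16.6, 10.2, 9.75 and 10.55 CPM in day 6 XAV939 libraries and a mean of 7.48 CPM at day 5, and means of 18.7 CPM at day 6 and 3.11 CPM at day 5 in untreated aggregates.

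The list medians of the 2 arms also stood side by side. For paralogue groups 5 to 8 the median log2 fold change was 4.93 in XAV939 and 2.41 in untreated aggregates, with 10 and 11 of 11 genes higher. The untreated value rested on day 5 untreated library 1, which was the highest of its day for 11 of the 11 genes, and without it the untreated median was 4.10. How often that library was the highest over all genes is not given here. Hoxb8, for example, had 35.7, 34.5, 47.0 and 47.5 CPM in day 6 untreated libraries 1 to 4, against 31.2, 4.73, 3.36 and 3.05 CPM in day 5 untreated libraries 1 to 4. For Notch genes it was 1.34 and 0.49, with 11 and 5 of 18 higher, for presomitic genes 1.08 and 0.43, for somite genes 2.34 and 2.61, and for the Nodal list -1.59 and -1.13. Without day 5 untreated library 1 the untreated medians of these lists were 0.84, 0.75, 3.28 and -1.26. With any 1 untreated library left out they ranged from 0.25 to 0.84 for Notch genes, 0.0712 to 0.75 for presomitic genes, 2.17 to 3.28 for somite genes and -1.57 to -0.70 for the Nodal list, and 3 to 7 Notch genes were higher. These settings were chosen after the data had been seen. These differences between lists were not tested, and no single gene of any list was called for a difference.

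Within the XAV939 arm the step lay between a larger and a smaller one. From day 4 to day 5 2679 genes were higher and 2561 lower (31% of genes, 15.9% and 15.2%), and from day 6 to day 7 709 and 500 (7.16%, 4.2% and 2.96%). These comparisons share libraries with the day 5 to day 6 step, so their values are given side by side. Streak genes had a median log2 fold change of 3.15 from day 4 to day 5, -1.39 from day 5 to day 6 and -2.14 from day 6 to day 7. Hox groups 1 to 4 had 5.38, 2.64 and -0.03, Hox groups 5 to 8 had 3.22, 4.93 and 0.12, and ventral neural tube genes had 0.22, 2.64 and 0.71. Neuron genes had -0.39, 0.94 and 1.58, with 5 of 25 higher in the first step, 11 in the second and 14 in the third. Mixl1 had 5.30, -5.24 and -3.15 over these steps, and Aldh1a2 2.92, 5.93 and -1.21.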

How the data were processed

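Poly(A) RNA was sequenced from stranded TruSeq libraries, per the labels' protocols. The submitters' processing notes name bcl2fastq 2.20.0 and mm10. No aligner, counter, strand setting or annotation is stated in the sources used here. The authors deposited raw counts per gene, whole numbers without normalisation, for 26906 genes, of which 508 were 0 in every library. Coordinates came from GENCODE M21 (26857 identifiers matched), promoters from RefSeq (GRCm38.p6).

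filterByExpr (minimum count 10, minimum total 15, 10 groups) left 16878 genes. Counts were scaled by TMM, and 1 edgeR 4.0.16 quasi-likelihood model of 10 group means was fitted to all 40 libraries in R 4.3.3, with Benjamini-Hochberg adjustment. Limma 3.58.1 and DESeq2 1.42.0 served as alternatives. No pair of libraries was a copy. On simulated counts of 16878 genes for this step 72% of 2-fold and 99% of 4-fold changes were recovered, and 8.56% of calls were false. The false share was above the set level of 0.05. The 200 changed genes left out those under 1 CPM at day 5, and the simulated libraries had no pairing and no deviant library. Recovery for genes near 0 CPM at day 5 was thus not tested.

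Deviations of day 6 and day 5 XAV939 libraries with the same number correlated at 0.177 to 0.221, each highest for its own number. Numbers thus pair these XAV939 libraries, although the labels do not say what a number marks. In untreated libraries 1 to 4 the same correlations were 0.141, 0.264, -0.057 and 0.186. Those of numbers 3 and 4 were not the highest for their own number. The block over all 40 libraries gives each number a shared effect across days and arms.

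The libraries compared, the gene lists and the tests were chosen with earlier results of these data known. Named genes are, of called genes of at least 5 CPM without overlap, the top 15 in each direction by fold, up to 4 called members of each list by adjusted p (or the 2 most abundant), a panel of markers, and genes called only with or without day 6 library 1 or farthest apart in it, named from the top. Other settings tried were size factors, filters, tools, a fold threshold, fits of fewer libraries, replicate blocks and each library left out. List counts without each library other than day 6 library 1, and untreated list medians without each untreated library, were added after the data were seen. Some genes and their results are not reported here.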

Additional observations from a re-analysis of the deposited data

Results flagged for a closer look

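In groups of 4 libraries a library was marked when its gap to the nearest of the others was more than 0.829 of the whole range. Chance marks about 1 in 20 groups. Among 242 groups examined 29 were marked, 9 of them for day 6 library 1 and 5 for day 5 library 1. The genes examined are those named, some of which were chosen because they stood apart in day 6 library 1, so these counts cannot be set against the share that chance gives. Levels are in CPM, with the range of the other 3 libraries after "against".

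Day 6 library 1 stood above the others for Gm42418 (2267 against 236 to 277), Lars2 (1170 against 70.02 to 95.4) and Gm15564 (36.3 against 2.11 to 3.33). It also stood above them for the neural genes Mab21l2 (23.5 against 0.468 to 4.38), Otx2 (122 against 25 to 39.2), Nhlh2 (8.06 against 0.9995 to 1.72) and Isl1 (8.34 against 1.67 to 2.19), and for Tph1 (16.6 against 9.75 to 10.55). It was below the others for Hey1 (16.4 against 18.3 to 18.6).

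Day 6 library 3 was highest for genes of streak and presomitic mesoderm, with Mixl1 at 1.89 against 0.302 to 0.573, Mesp2 at 7.73 against 2.18 to 2.57, Ripply2 at 4.57 against 0.957 to 1.41 and Tbx6 at 22.9 against 3.80 to 6.64. It was also highest for Aldh1a2 (236 against 88.2 to 95.9), Olig3 (11.8 against 3.58 to 4.68) and Nkd2 (17.2 against 10.52 to 11.2). Day 6 library 2 was highest for Krt18 (139 against 77.7 to 88.1).

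Day 5 library 1 was highest for Lars2 (681 against 75.6 to 109), Gm15564 (23.4 against 1.80 to 3.84), Gm42418 (350.1 against 269 to 271) and Ncam1 (32.8 against 26.9 to 27.6), and had 0 for Olig2 against 0.0552 to 0.0658. Day 5 library 4 was highest for Otx1 (4.64 against 0.442 to 0.630), Tal2 (13.2 against 1.80 to 2.92), Neurod4 (0.428 against 0 to 0.0286) and Onecut1 (0.922 against 0.253 to 0.331). It was lowest for Klf5 (5.30 against 8.75 to 8.96) and Trim67 (7.47 against 20.2 to 22.2). Day 5 library 3 was lowest for Hoxb9 (0.687 against 4.74 to 4.91).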

How the results depend on the processing

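The counts of 1565 genes higher and 1297 lower stayed within 1.5-fold with size factors of DESeq2 in edgeR (1684 and 1149), without a filter (1444 and 1051), in DESeq2 (1810 and 1300) and in the 8 libraries alone (1499 and 1107). A filter of 5 CPM gave 1103 and 807, limma with sample weights 2369 and 2355, a fold of at least 2 1016 and 718, and leaving out the libraries numbered 1 of both days 955 and 711. Under a replicate block the counts were 1932 and 1677 over 40 libraries (2855 shared with the unblocked calls) and 1852 and 1358 in the 8 libraries (2470 shared). Other than the calls given beside their genes, the block changed no call of a named gene. Leaving out 1 library gave 1052 to 1637 higher and 845 to 1304 lower. For the difference between the arms the counts were 0 and 0, with 4 more positive and 4 more negative in DESeq2, 0 and 2 in limma, 0 to 4 and 0 to 4 with 1 library left out, and 0 and 0 with replicate blocks within each day. The cause of these shifts was not tested.

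Of genes not called, 7 changed sign under some setting. With 1 library left out Cdx2 ranged from -0.00677 (without day 6 library 3) to 0.912, and En2 from -0.11 (without day 6 library 1) to 1.25. Without day 6 library 1 Mab21l2 was at -1.57, Lars2 at -1.56, Gm15564 at -1.66 and Gm42418 at -0.15, each the lowest with 1 library left out, and the highest were 0.78, 1.9, 1.9 and 1.69 in this order. Without the libraries numbered 1 of both days En2 was at -0.0706, Mab21l2 at -1.44, Lars2 at -0.21, Gm15564 at -0.20 and Gm42418 at -0.0456. With replicate blocks in the 8 libraries En1 was at -0.0552, En2 at -0.22 and Mab21l2 at -0.84, and with blocks over 40 libraries Mab21l2 was at -0.52. In limma Mab21l2 was at -1.04 and Lars2 at -0.0346. Without day 5 library 4 Otx1 (3.26, adjusted p 0.0212) and Tal2 (3.16, adjusted p 0.0142) were called.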
